A study of Mus musculus with 8 samples.

Results

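The genes of the BCL2 family decide at the outer membrane of mitochondria whether a cell survives or dies, and 9 of them were followed here in hearts of *Rnaseh1* knockout mice. They were *Bcl2*, *Bcl2l1*, *Mcl1*, *Bak1*, *Bok*, *Bid*, *Bad*, *Bcl2l11* and *Pmaip1*, taken by gene name from 54508 genes in the table of normalised counts. Total RNA of whole hearts from 24-week-old C57BL/6 mice was sequenced as TruSeq paired-end libraries, 4 from *Rnaseh1* knockout mice (labelled RNase H1-/-) and 4 from wild type mice (labelled RNase H1+/+). The study describes each library as a separate animal. RNase H1 removes RNA from RNA:DNA hybrids, and the study asked what its loss does to mitochondrial gene expression. The knockout mice were Rnaseh1 loxP/loxP; +/Ckmm-cre, in which a Cre under the muscle creatine kinase promoter deletes exon 2 in heart and skeletal muscle. The study describes its controls as floxed mice without Cre, although the labels call them wild type, so Cre itself cannot be told apart from the loss of RNase H1. Heart cells other than muscle keep the gene.

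The family has 2 sides. *Bcl2*, *Bcl2l1* (BCL-XL) and *Mcl1* encode pro-survival proteins, which hold the pro-death proteins in check. Among the pro-death proteins, the effector BAK (*Bak1*) forms pores in the outer membrane that release cytochrome c, and *Bok* encodes a relative of BAK. The BH3-only proteins BID, BAD, BIM (*Bcl2l11*) and NOXA (*Pmaip1*) sense damage and act on the others through a short helix, the BH3 domain. In heart muscle, *Mcl1* and *Bcl2l1* are known for keeping cardiomyocytes alive, and many of these proteins are controlled after transcription, which RNA counts do not show.

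The BH3 helix is the feature through which the BH3-only proteins bind other members. Its coding sequence was therefore read from the longest coding transcript of each member in GENCODE M21 on GRCm38. The search asked for a leucine codon, 3 codons of any kind, a glycine or serine codon, an aspartate codon, and then an aspartate, glutamate or glycine codon. It found exactly 1 match in 8 of the 9 members and none in *Pmaip1*, which says only that these letters are not in its coding sequence. The pattern was chosen from known BH3 domains, and 1349 of 21584 genes with a coding sequence (6.25%) hold it. The matches are shown 5′ to 3′ on the coding strand in 45 bases, with the 21 bases of the core in capitals. The BH3-only proteins bind other members through this stretch, and its letters differ from member to member.
Bcl2: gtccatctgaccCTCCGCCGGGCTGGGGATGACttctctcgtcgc
Bcl2l1: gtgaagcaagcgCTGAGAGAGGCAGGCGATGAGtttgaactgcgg
Mcl1: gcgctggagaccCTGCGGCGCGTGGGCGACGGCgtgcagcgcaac
Bak1: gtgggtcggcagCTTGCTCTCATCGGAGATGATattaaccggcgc
Bok: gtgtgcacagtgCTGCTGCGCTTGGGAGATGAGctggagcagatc
Bid: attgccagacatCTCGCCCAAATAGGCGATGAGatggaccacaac
Bad: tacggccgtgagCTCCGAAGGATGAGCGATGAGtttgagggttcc
Bcl2l11: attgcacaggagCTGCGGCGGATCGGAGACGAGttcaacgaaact
The codon before the aspartate codon is a glycine codon in 7 of these 8 sequences and a serine codon in 1, that of *Bad*. The last codon of the core is a glutamate codon in 5 sequences and an aspartate codon in 2, those of *Bcl2* and *Bak1*. It is a glycine codon in 1, that of *Mcl1*.

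Between 27429878 and 30505752 read pairs were counted per knockout library and between 31810103 and 40715847 per wild type library. Transcripts of mtDNA took up 9.46 to 12.4% of them in the knockout and 60.2 to 62.6% in wild type, so nuclear genes were covered by 24835342 to 27146119 pairs per knockout library and by 11896021 to 16213429 per wild type library. Wild type values of a low gene therefore rest on fewer reads. The normalised counts of *Rnaseh1* were 181.7, 144.7, 165.5 and 166.4 in knockout replicates 1 to 4, against 129.3, 144.2, 157.6 and 129.5 in wild type replicates 1 to 4. The log2 difference was 0.23 ± 0.12 (SE, limma-trend adjusted p = 0.114), so a fall of the whole transcript was not seen. The study, in contrast, reports a significant reduction of *Rnaseh1* transcripts in knockout hearts by quantitative PCR. By reverse transcription PCR it reports that the deleted exon was missing from them. The counts used here are per gene and do not check the genotype labels. The reason for the difference from the quantitative PCR was not tested. Markers of heart muscle were abundant in all libraries, but 10 of 10 cardiomyocyte markers were lower in the knockout (6 with equal library totals), with summed normalised counts of 1522535 to 1841681 in knockout libraries and 3836582 to 3995736 in wild type libraries. Of 9 macrophage markers 8 were higher (sums 15786 to 19132 in the knockout, 5630 to 6359 in wild type), and of 8 fibroblast markers 5 were higher (sums 71066 to 95306 in the knockout, 26957 to 28258 in wild type). Among all 17046 genes tested, 30.7% were higher and 28.4% lower. No marker in these lists was without reads in all libraries. Fewer cells of a type and less RNA per cell cannot be told apart in whole-heart RNA, and the part of these shifts in the results that follow was not tested.

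Most of the family was higher in knockout hearts on both sides. Of the 9 members, 7 were higher (*Bcl2*, *Bcl2l1*, *Bak1*, *Bok*, *Bid*, *Bad*, *Pmaip1*), *Bcl2l11* was lower and *Mcl1* did not pass the test, and these calls held when libraries were scaled to equal nuclear totals, while equal library totals turned *Bcl2l11* and lifted *Mcl1* past the threshold. Changes were tested with limma-trend on log2(normalised count + 1), with Benjamini-Hochberg adjustment over 17046 genes. At the same threshold of 0.05, 30.7% of all those genes were higher and 28.4% lower, and their median log2 change was 0.02. All 9 members passed the filter on low values, but *Pmaip1* did so only through the knockout libraries. Its call as higher was favoured by that filter, and it is included in the counts and medians of this paragraph. On the pro-survival side 2 of 3 members were higher and 0 lower. On the pro-death side 5 of 6 were higher and 1 lower. The median log2 change was 1.06 over the pro-survival members and 1.48 over the pro-death members. The same 7 members had every knockout library above every wild type library, and *Bcl2l11* had every knockout library below, where 28.2% and 26.5% of all genes tested were separated in these directions.

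*Bcl2*, the founder of the family, lies at chr1:106538178-106714274 on the minus strand, and its BH3 stretch shown above is in exon 1 of 2 (chr1:106712569-106712613). Its normalised counts were 1026, 894.4, 525.9 and 687.2 in knockout replicates 1 to 4, against 410.4, 314.2, 363.1 and 369.5 in wild type. Every knockout library was above every wild type library, with knockout replicate 3 closest to them. Means were 783 ± 221 in the knockout and 364 ± 39.4 in wild type (SD, n = 4 each), a log2 difference of 1.06 ± 0.18 (SE, limma-trend adjusted p = 0.000549).

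*Bcl2l1* lies at chr2:152780668-152831728 on the minus strand, with the BH3 stretch in exon 2 of 3 (chr2:152829691-152829735). Alternative splicing of this gene is known to give a long pro-survival and a short pro-death form, which a count per gene adds together. The values were 1398, 1263, 2877 and 2062 in knockout replicates 1 to 4, against 659.9, 738.1, 871.4 and 702.7 in wild type. Means were 1900 ± 739 in the knockout and 743 ± 91.3 in wild type (SD, n = 4 each), a log2 difference of 1.28 ± 0.22 (SE, limma-trend adjusted p = 0.00059). The groups did not overlap, and knockout replicates 3 and 4 stood well above replicates 1 and 2.

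*Mcl1*, whose protein is short-lived and binds BAK and BIM, lies at chr3:95658788-95663176 on the plus strand, with the BH3 stretch in exon 1 of 3 (chr3:95659424-95659468). It had 4133, 4180, 5579 and 5111 normalised counts in the knockout, against 4102, 4348, 5080 and 5029 in wild type. The groups overlapped. Means were 4751 ± 713 in the knockout and 4640 ± 490 in wild type (SD, n = 4 each), and the log2 difference was 0.03 ± 0.11 (SE, limma-trend adjusted p = 0.845). Its 95% interval ran from -0.22 to 0.27, so that a change as large as that of *Bcl2*, in either direction, lay outside it. With equal library totals the difference was 1.47 (adjusted p = 8.82e-08), because all genes then shifted by a median of 1.46, and relative to the median gene it was 0.01.

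**Figure D1:**
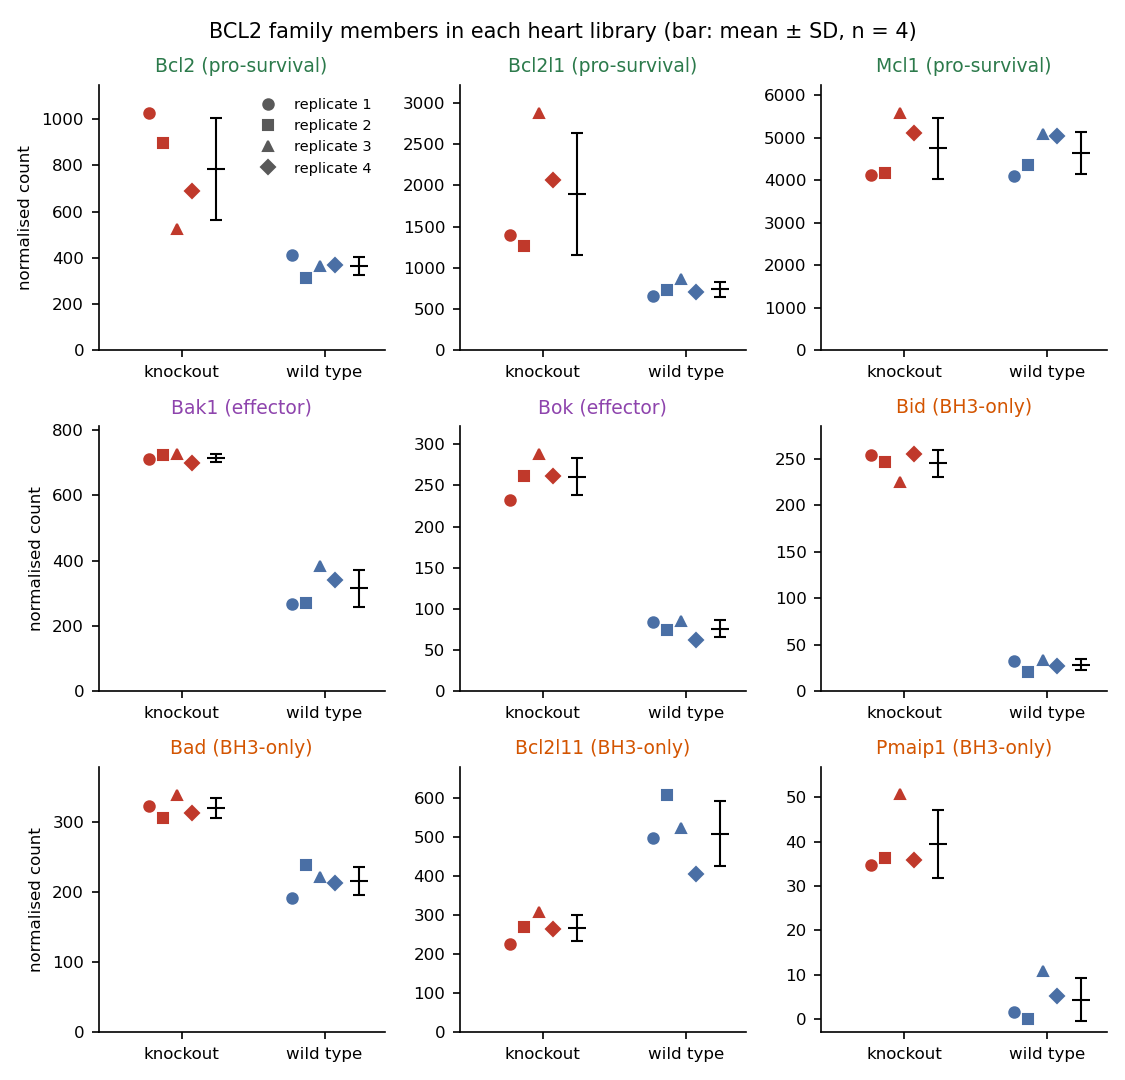
Normalised count of each of the 9 members (y axis, from 0) in 4 knockout (red, left) and 4 wild type (blue, right) heart libraries, 1 symbol per replicate number, with the mean and SD as a bar. The groups overlap only for *Mcl1*, *Bcl2l11* is lower in the knockout (higher with equal library totals, which are not drawn), and *Bid* lies between 224.8 and 255.3 in the knockout, against 20.95 to 33.99 in wild type.

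Both effectors were higher in the knockout. *Bak1*, at chr17:27019810-27029009 on the minus strand with the BH3 stretch in exon 4 of 6 (chr17:27022525-27022569), had 709.9, 724.2, 726.6 and 697.9 normalised counts in the knockout, against 267.6, 269.8, 383.2 and 341.9 in wild type. The knockout libraries were close to each other, the highest being 1.04 times the lowest, against 1.43 times in wild type. Means were 715 ± 13.4 in the knockout and 316 ± 56.7 in wild type (SD, n = 4 each), a log2 difference of 1.19 ± 0.12 (SE, limma-trend adjusted p = 8.57e-06).

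*Bok*, at chr1:93685660-93695764 on the plus strand, has a BH3 stretch that is divided between exons 2 and 3 of 5 (chr1:93686645-93689176, with the intron between). BOK is not held in check by the pro-survival proteins in the way BAK is. It had 232.5, 261.1, 288.0 and 261.0 normalised counts in the knockout, against 84.18, 73.93, 84.97 and 62.16 in wild type. The means were 261 ± 22.7 in the knockout and 76.3 ± 10.7 in wild type (SD, n = 4 each), a log2 difference of 1.77 ± 0.13 (SE, limma-trend adjusted p = 1.21e-06). Its lowest knockout library was well above its highest wild type library.

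The 4 BH3-only members moved in both directions. *Bid*, at chr6:120891930-120916853 on the minus strand with the BH3 stretch in exon 4 of 6 (chr6:120897283-120897327), encodes the protein that caspase-8 cleaves to link death receptors to mitochondria. It had 254.0, 246.3, 224.8 and 255.3 normalised counts in the knockout, against 33.07, 20.95, 33.99 and 27.62 in wild type. Means were 245 ± 14.1 in the knockout and 28.9 ± 6.01 in wild type (SD, n = 4 each), which is 8.48 times the wild type mean, and the log2 difference was 3.06 ± 0.17 (SE, limma-trend adjusted p = 1.25e-07). The 9 summed macrophage markers (15786 to 19132 in the knockout, 5630 to 6359 in wild type), of a cell type in which *Bid* is known to be expressed, were also higher in each knockout library, and their part in the change of *Bid* was not tested.

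*Bad*, at chr19:6941861-6951899 on the plus strand with the BH3 stretch in exon 3 of 4 (chr19:6950780-6950824), encodes a protein that growth factor signals hold inactive by phosphorylation. It had 322.3, 305.5, 338.2 and 312.1 normalised counts in the knockout, against 190.9, 239.0, 220.9 and 212.4 in wild type. The groups did not overlap. The log2 difference of 0.57 ± 0.09 (SE, limma-trend adjusted p = 0.000409) was the smallest among the members that passed the test, with means of 319.5 ± 14.2 in the knockout and 216 ± 19.98 in wild type (SD, n = 4 each).

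*Bcl2l11* was the member that fell. It lies at chr2:128126038-128162547 on the plus strand, with the BH3 stretch in exon 3 of 4 (chr2:128147138-128147182), and encodes BIM, which binds all pro-survival members. Its normalised counts were 226.2, 269.2, 308.9 and 264.2 in the knockout, against 499.1, 608.7, 525.3 and 405.7 in wild type. Means were 267 ± 33.8 in the knockout and 509.7 ± 83.6 in wild type (SD, n = 4 each), 0.524 of the wild type mean. The log2 difference was -0.92 ± 0.13 (SE, limma-trend adjusted p = 0.000161), but with equal library totals it turned to 0.52 (adjusted p = 0.00581), while relative to the median gene under that scaling it was -0.94 (adjusted p = 0.000242). The fall is thus one against the bulk of nuclear genes, not against the total of counted reads.

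*Pmaip1* lies at chr18:66458533-66465565 on the plus strand and encodes NOXA, which binds mainly MCL1. It had 34.8, 36.34, 50.83 and 35.94 normalised counts in the knockout, against 1.503, 0, 10.81 and 5.18 in wild type. These came from 50, 54, 78 and 57 read pairs in the knockout and 1, 0, 7 and 3 in wild type, so the wild type level rests on 11 pairs in all. The ratio of summed pairs, corrected for depth by the size factors, was 9.72 (95% exact interval 5.33 to 19.7, counting error only). The log2 difference was 3.44 ± 0.65 (SE), with no p given because the gene passed the filter only through the knockout. The size of this difference depended on the pseudocount, with 3.80 at a pseudocount of 0.5 and 2.37 at 5.

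**Figure D2:**
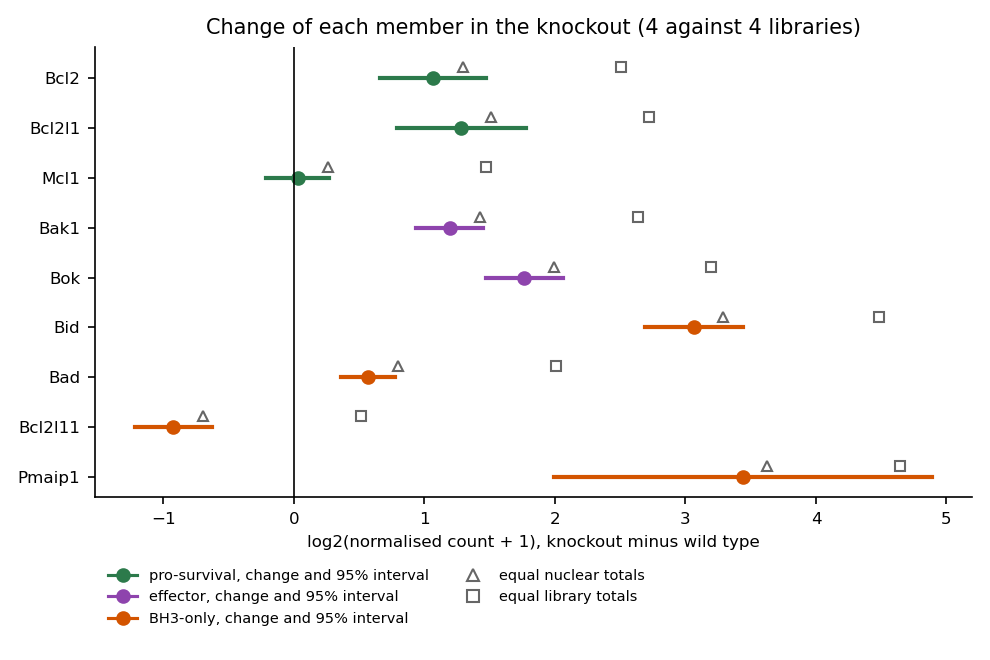
Change of each member in the knockout (x axis, log2 of normalised count + 1, knockout minus wild type), coloured by role, with its 95% interval from limma-trend as a line. Open symbols give the change with equal nuclear totals (triangles) and equal library totals (squares), where *Bcl2l11* is at 0.52 instead of -0.92 and *Mcl1* at 1.47 instead of 0.03.

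Levels of different genes were compared as normalised counts per kilobase of annotated exons. In both genotypes *Mcl1* had the highest level of the 9 members, with 1390 ± 209 per kb in the knockout and 1358 ± 143 in wild type (SD, n = 4 each). *Bcl2l1* came next, with 414 ± 161 per kb in the knockout and 162 ± 19.9 in wild type, followed by *Bak1* with 297 ± 5.55 in the knockout and 131 ± 23.6 in wild type. In the knockout the order then ran over *Bok* (142 per kb), *Bad* (125), *Bcl2* (85.5), *Bid* (69.1), *Bcl2l11* (33.3) and *Pmaip1* (14.4). In wild type it ran over *Bad* (84.4), *Bcl2l11* (63.5), *Bok* (41.5), *Bcl2* (39.8), *Bid* (8.14) and *Pmaip1* (1.601). Thus *Bcl2l11* had rank 8 of 9 in the knockout and rank 5 in wild type, and *Bok* had rank 4 in the knockout and rank 6 in wild type. Neighbours that overlapped between libraries were *Bcl2l1* with *Bak1*, *Bok* with *Bad* and *Bcl2* with *Bid* in the knockout, and *Bcl2l1* with *Bak1*, *Bad* with *Bcl2l11* and *Bok* with *Bcl2* in wild type.

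Although its own level was in the same range in both groups, *Mcl1* made up a smaller part of the pro-survival sum per kb in the knockout. Its share was 74.4, 76.6, 70.5 and 74.0% in knockout replicates 1 to 4, against 86.4, 86.7, 86.6 and 88.4% in wild type. *Bcl2l1* took 21.3 ± 4.36% in the knockout and 10.4 ± 0.858% in wild type (SD, n = 4 each). *Bcl2* contributed 4.80 ± 2.06% in the knockout and 2.58 ± 0.437% in wild type, with overlap between the groups. The sum holds only these 3 members. Other family genes were not set per kb, among them *Bcl2l2*, with mean normalised counts of 1252 in the knockout and 1072 in wild type.

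The pro-death side changed its make-up as well. *Bcl2l11* held 4.88 ± 0.468% of the pro-death sum per kb in the knockout and 19.3 ± 3.21% in wild type (SD, n = 4 each), and *Bid* held 10.2 ± 0.884% in the knockout and 2.47 ± 0.522% in wild type. *Bok* rose in share as well, with 20.8 ± 1.20% in the knockout and 12.6 ± 1.85% in wild type. *Bak1* was the largest contributor in both groups, with 43.7 ± 1.04% in the knockout and 39.6 ± 4.93% in wild type, which overlapped. These shares, which no scaling of a library can alter, are given as descriptions with no test.

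**Figure D3:**
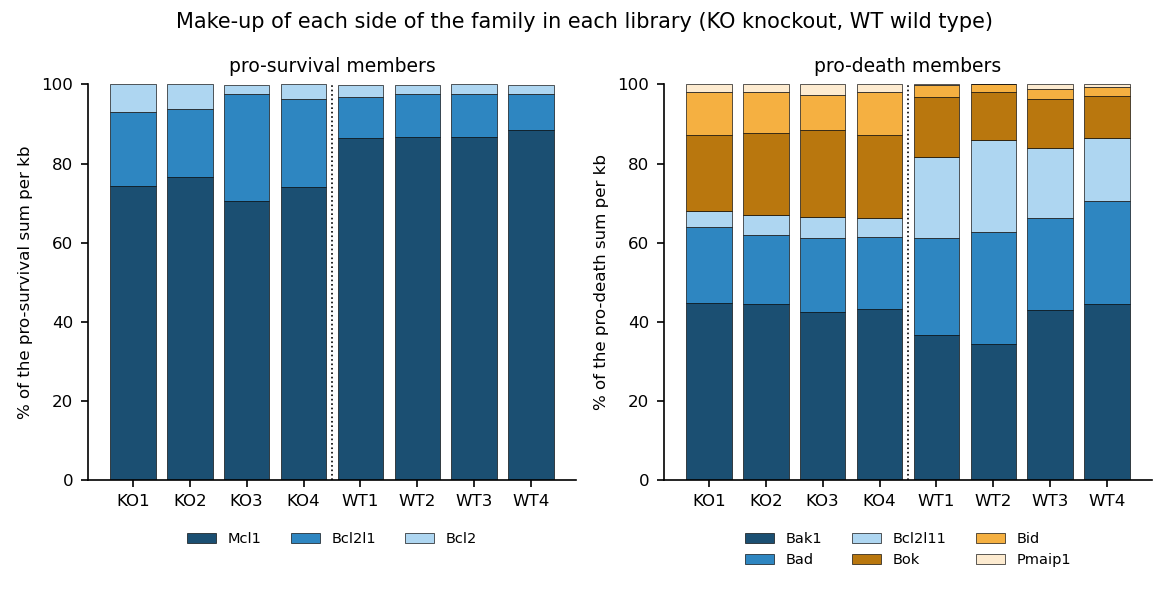
Share of each member (y axis, %) in the summed normalised counts per kb of the 3 pro-survival members (left panel) and of the 6 pro-death members (right panel) in each knockout (KO) and wild type (WT) library. *Mcl1* takes 70.5 to 76.6% of the pro-survival sum in the knockout, against 86.4 to 88.4% in wild type, and *Bcl2l11* takes 4.27 to 5.41% of the pro-death sum in the knockout, against 15.8 to 23.2% in wild type.

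Set against each other within a library, the pro-death side gained on the pro-survival side. The pro-death sum per kb was 659.7, 678.4, 711 and 671.8 in the knockout, against 303.6, 327.5, 370.7 and 319 in wild type. The pro-survival sum per kb was 1626, 1596, 2317 and 2020 in the knockout, against 1389, 1467, 1716 and 1665 in wild type, and these groups overlapped. The pro-survival sum was 2.46, 2.35, 3.26 and 3.01 times the pro-death sum in knockout replicates 1 to 4, against 4.58, 4.48, 4.63 and 5.22 times in wild type. Each knockout library was thus below each wild type library, and the pro-survival sum of these members remained the larger one in all 8.

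The mean log2 level of the 6 pro-death members minus that of the 3 pro-survival members, which gives each gene the same weight, was -3.05, -2.87, -3.01 and -3.08 in the knockout, against -3.78, -3.99, -3.44 and -3.72 in wild type. It is not set per length, so only its difference between the groups is read. The groups did not overlap. The difference between their means was 0.73, and it was 0.34 when *Pmaip1*, with its few reads, was left out (chosen after seeing the data). No test was made of this score, since its members were chosen with results of these data known.

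Ratios of single pairs of members differed in both directions. *Bcl2l11* minus *Bcl2* on the log2 scale was -2.18, -1.73, -0.77 and -1.38 in the knockout, against 0.28, 0.95, 0.53 and 0.13 in wild type, so that each knockout library was below each wild type library. *Bcl2l11* minus *Bid* was 0.12 ± 0.26 in the knockout and 4.10 ± 0.46 in wild type (SD, n = 4 each). *Bak1* minus *Mcl1* was -2.72 ± 0.22 in the knockout and -3.89 ± 0.12 in wild type. *Bak1* minus *Bcl2l1*, another known pair, overlapped between the groups, with -1.33 ± 0.54 in the knockout and -1.24 ± 0.17 in wild type. *Bad* minus *Bcl2l1* was lower in every knockout library, with -2.49 ± 0.50 in the knockout and -1.78 ± 0.15 in wild type.

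*Bcl2* and *Bcl2l1* were the members that varied most among the knockout hearts, and they did so in opposite order. The SD of the log2 level over knockout libraries was 0.43 for *Bcl2* and 0.54 for *Bcl2l1*, against 0.16 and 0.17 in wild type, where the median gene had 0.20 in the knockout and 0.14 in wild type. *Bcl2* minus *Bcl2l1* was -0.45, -0.50, -2.45 and -1.58 in knockout replicates 1 to 4, against -0.68, -1.23, -1.26 and -0.93 in wild type. Knockout replicates 3 and 4 thus had the lowest *Bcl2* and the highest *Bcl2l1*, and replicates 1 and 2 the reverse.

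Markers of red cells and granulocytes divided the knockout libraries in the same way, and those of B, T and NK cells in the opposite way. The division was not particular to blood cells. Endothelial markers summed to 24434, 23646, 19263 and 19236 in knockout replicates 1 to 4. Cardiomyocyte and fibroblast sums were also higher in replicates 1 and 2, while macrophage and mural sums did not divide so. Counts differed least between replicates 1 and 2 and between 3 and 4 (chi-square per degree of freedom 10.45 and 24.3). The other pairs of knockout libraries had 26.36 to 75.46. The 5 B cell markers summed to 93.3, 85.5, 11.7 and 59.9 normalised counts in knockout replicates 1 to 4. The 7 T and NK cell markers, all under the filter, summed to 39.7, 48.5, 16.9 and 22.1. The 7 erythroid markers (among them hemoglobin genes and *Alas2*) summed to 6337, 6805, 22085 and 19549 normalised counts in knockout replicates 1 to 4, against 10918, 11517, 10792 and 12813 in wild type, and 0 of 7 passed the test between genotypes. *Bcl2l1* is known to be expressed strongly in maturing red cells. The 6 granulocyte markers summed to 296.5, 334.5, 1263 and 1561 in the knockout, against 64.6, 48.1, 63.3 and 50.1 in wild type, and every knockout library was above every wild type library. Of the 5 that could be tested, 4 passed the filter only through the knockout, so no count of them is given. *Ly6g*, a defining marker, stayed under the filter with means of 0.663 in the knockout and 0.432 in wild type. In knockout replicates 1 and 2, the erythroid sums were below each wild type library and *Bcl2l1* was above each wild type library. Without knockout replicates 3 and 4 (chosen after seeing the data) the log2 difference was 0.85 for *Bcl2l1*, 1.52 times smaller than with all libraries, and 1.399 for *Bcl2*. Since these libraries also held the extreme values of both genes, the shifts follow from leaving them out, and no p is given. The counts were then again 7 members higher and 1 lower. The part of blood cells in the difference among the knockout hearts, or in that between the genotypes, was not tested.

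**Figure D4:**
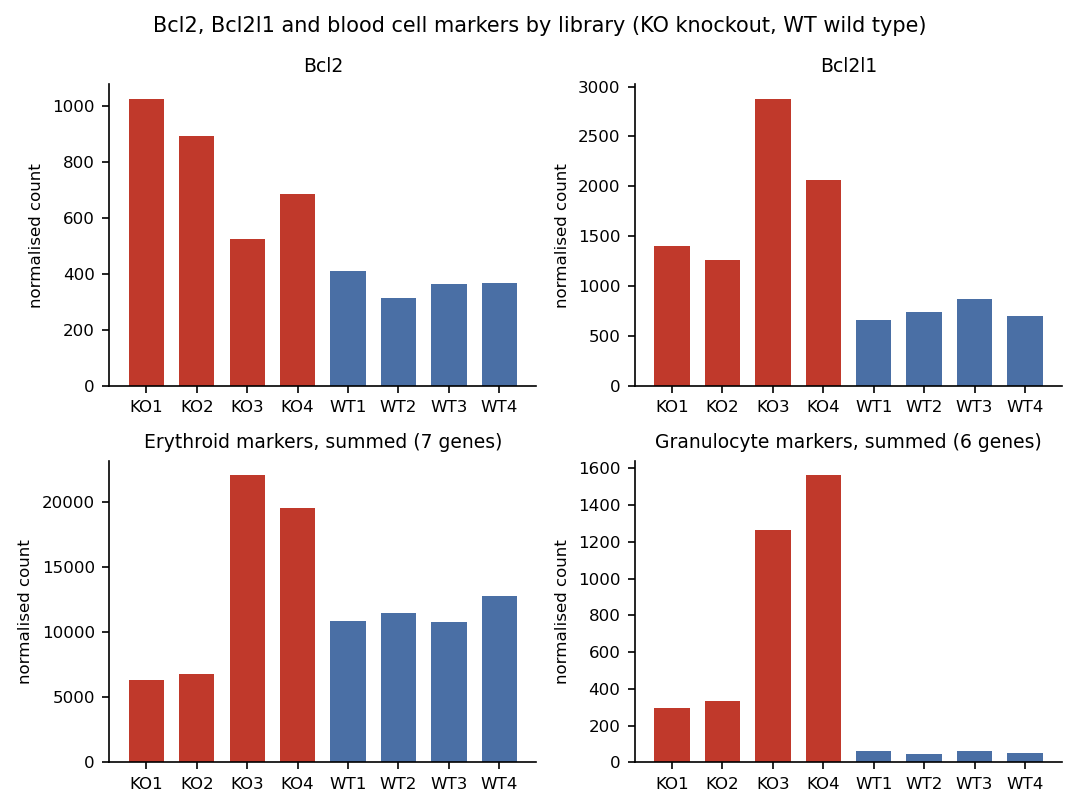
Normalised counts (y axes, from 0) of *Bcl2*, *Bcl2l1*, the 7 summed erythroid markers and the 6 summed granulocyte markers in each knockout (KO, red) and wild type (WT, blue) library. KO3 and KO4 have the highest *Bcl2l1* (2877 and 2062) and erythroid sums (22085 and 19549) and the lowest *Bcl2* (525.9 and 687.2) among the knockout libraries.

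Around the 9 members, 9 lists of 73 genes of the same pathway were described, of which 67 genes could be tested. Of these, 29 (43.3%) were higher and 15 (22.4%) lower in knockout hearts, beside 30.7% and 28.4% of all genes tested. The 29, and the counts of their own lists, include *Bcl2a1b* and *Birc5*, which passed the filter only through the knockout. The counts depended on scaling: with equal nuclear totals, small falls such as those of *Birc6* (-0.22) and *Cflar* (-0.18) had the values 0.01 and 0.05, and with equal library totals, under which 68 passed the filter, 67 were higher and 1 lower. In the list of other BCL2 family genes, 4 of 11 tested were higher and 2 lower (median log2 change 0.34). *Bcl2a1b*, which encodes a pro-survival protein of white blood cells, gained most. It had 41.76, 51.15, 35.19 and 42.87 normalised counts in the knockout, against 6.013, 6.161, 6.18 and 8.633 in wild type, a log2 difference of 2.50 ± 0.25 (SE). No p is given, because of the way it passed the filter. It is nearly identical to *Bcl2a1a* and *Bcl2a1d*, so reads may have been divided among them. Macrophage and granulocyte markers were higher in the same libraries, and their part in this change was not tested. *Bcl2a1a* and *Bcl2a1d* were both under the filter. Means were 8.66 in the knockout and 0.924 in wild type for *Bcl2a1a*. Those of *Bcl2a1d* were 16.7 in the knockout and 2.42 in wild type.

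*Bax*, the other main effector, had 670.3, 661.6, 462.7 and 573.7 normalised counts in the knockout, against 177.4, 159, 185.4 and 191.6 in wild type. Its log2 difference was 1.71 ± 0.13 (SE, limma-trend adjusted p = 1.06e-06), close to that of *Bok*, and it is named after its values were seen, as is *Bbc3* (PUMA, 1.03 ± 0.24, limma-trend adjusted p = 0.00363). *Bik*, a BH3-only gene, fell most with 114.8, 86.82, 122.5 and 90.15 in the knockout, against 228.5, 195.9, 225.6 and 212.4 in wild type, a log2 difference of -1.06 ± 0.14 (SE, limma-trend adjusted p = 6.94e-05) that became 0.37 with equal library totals. *Bcl2l10*, *Bcl2l14* and *Bcl2l15* were under the filter, none above 9.78 normalised counts in a library.

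Downstream of the members, 2 of 7 genes of the apoptosome and caspase list were higher and 1 lower. These and the following counts are of few genes and stand beside 30.7% higher and 28.4% lower among all genes tested. *Cycs*, the cytochrome c that the pores release, had a log2 difference of -0.79 ± 0.07 (SE, limma-trend adjusted p = 2.83e-06) and was at 0.65 with equal library totals. Of 7 inhibitors of apoptosis and their antagonists 3 were higher and 1 lower, led by *Birc5* (survivin, also a gene of dividing cells) with 1.99 ± 0.38 (no p is given, since its wild type mean was under the filter), and *Birc6* was the lower one with -0.22 ± 0.05 (adjusted p = 0.00211, 0.01 with equal nuclear totals). Of 5 outer membrane channels and released nucleases 2 were higher and 3 lower, with *Vdac3* at 0.27 ± 0.06 (adjusted p = 0.0019) and *Endog*, a nuclease of mitochondria, at -1.07 ± 0.10 (adjusted p = 7.55e-06, 0.37 with equal library totals). All 3 genes of the list headed caspase substrates (*Parp1*, *Dffa* and *Dffb*) were lower, and all 3 higher with equal library totals. The heading does not mean that each of them encodes a substrate. Of these genes *Dffb* fell most, by -0.75 ± 0.17 (adjusted p = 0.00339, 0.68 with equal library totals).

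Upstream, 5 of 10 genes of the death receptor list were higher and 1 lower, beside 30.7% higher and 28.4% lower among all genes tested. *Tnfrsf10b*, the receptor of the ligand TRAIL, was higher by 1.44 ± 0.16 on the log2 scale (SE, limma-trend adjusted p = 2.45e-05), and *Cflar*, which blocks caspase-8, was at -0.18 ± 0.05 (adjusted p = 0.0117, 0.05 with equal nuclear totals). *Fasl* was under the filter, with means of 2.12 in the knockout and 1.14 in wild type. Of 5 necroptosis and pyroptosis genes 3 were higher and 0 lower, *Gsdme* most, by 2.15 ± 0.50 (adjusted p = 0.00353). *Ripk3* and *Casp1* were the others.

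Of 9 transcription factors and cofactors known to act on members, 6 were higher and 2 lower (median log2 change 0.83). Among all genes tested, 30.7% were higher and 28.4% lower. *Trib3*, a target and partner of CHOP, had 2440, 2043, 2143 and 1959 normalised counts in the knockout, against 40.6, 49.3, 61.8 and 44.9 in wild type, and its log2 difference was 5.43 ± 0.13 (SE, limma-trend adjusted p = 6.8e-10). The other genes that were higher were *Myc*, *Ddit3* (CHOP), *Atf4*, *Trp53* and *Mdm2*. *Foxo3*, which is known to activate *Bcl2l11*, was lower, with 1548, 1567, 2607 and 2431 in the knockout, against 3011, 2889, 3209 and 3267 in wild type, a log2 difference of -0.64 ± 0.16 (adjusted p = 0.00617) that was 0.80 with equal library totals. Of 10 regulators of the proteins 4 were higher and 2 lower. *Dynll1*, a dynein light chain that binds BIM, was higher by 1.20 ± 0.18 (adjusted p = 0.000195). *Fbxw7*, part of a ubiquitin ligase that marks MCL1 for degradation, had 749.6, 848.7, 957.3 and 677.1 in the knockout, against 2701, 2398, 2509 and 2837 in wild type. Its log2 difference was -1.70 ± 0.10 (adjusted p = 2.8e-07), and it was the gene of these lists that stayed lower with equal library totals, at -0.26 (adjusted p = 0.0222).

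**Figure D5:**
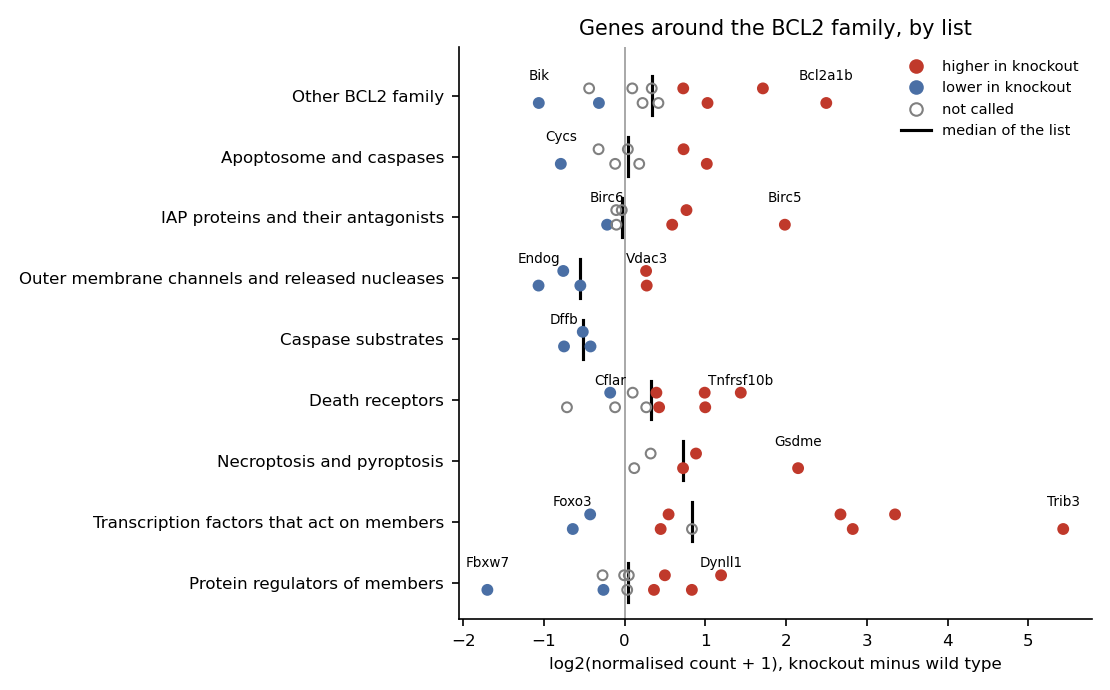
Change of the 67 tested genes of 9 pathway lists (x axis, log2 of normalised count + 1, knockout minus wild type), 1 point per gene, red for higher, blue for lower and open for not past the limma-trend threshold, with the list median as a black line. *Trib3* lies at 5.43 and *Fbxw7* at -1.70, and with equal library totals, not drawn, only *Fbxw7* remains lower.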

How the data were processed

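RNA sequencing of heart was compared between 4 knockout and 4 wild type libraries, grouped by the sample labels. The authors aligned read pairs to mm10 with HISAT2 2.10, counted them per gene and by strand with featureCounts 1.6.3 on a GRCm38 annotation, and deposited a normalised signal, namely counts divided by 1 DESeq2 1.18.1 size factor per library (R 3.5.1). A second sheet holds their own fold changes, standard errors and p-values, and was not used. Of the values above 0, 100% were whole multiples of 1 read pair (within 0.01), so read pairs were recovered for the count tests, in which edgeR called 5237 genes higher and 4786 lower. A repeat of 13 mtDNA rows was not read again.

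Differences were tested with limma-trend (limma 3.58.1, R 4.3.3), two-sided, on log2(normalised count + 1), with a term for genotype alone. The 17046 genes tested had a mean of 10 or more. Adjustment was by Benjamini and Hochberg, threshold 0.05. The pseudocount of 1 understates changes of low genes. Alternatives were pseudocounts of 0.5 and 5, no filter, equal nuclear totals, equal library totals, each library left out, a replicate block, and edgeR 4.0.16 and DESeq2 1.42.0 on recovered pairs. Added after seeing the data were both scalings relative to the median gene, the omission of knockout replicates 3 and 4, and the score without *Pmaip1*. The limma-trend fit was tested on simulated counts with the same dispersion in all genes and both groups. Real replicates were more uneven, which that test does not cover. P-values measure only the spread between samples, and replicates differed by more than their counting error.

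All 9 members are named with their values, and from each list the genes that rose and fell most past the threshold and those under the filter (1 such gene is not reported here). The members and lists were chosen with earlier results of these data known. Positions, exon lengths and sequences are from GENCODE M21 on GRCm38. For *Bad* and *Pmaip1*, the start or end given with the counts differs from it, so their levels per kb rest on exons that may differ from those counted. Exons of *Bcl2*, *Bak1*, *Bid* and *Bad* overlap genes on the opposite strand (6.09, 25.5, 17.7 and 20.5% of their exonic bases), which counting by strand should separate. Figures were drawn with matplotlib 3.10.9.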

Additional observations from a re-analysis of the deposited data

Results flagged for a closer look

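Among 48 groups of 4 values, 4 had a library far from the other 3 (Dixon's ratio at 95%), where chance gives about 1 in 20. *Pmaip1* reached 50.83 normalised counts in knockout replicate 3, against 34.8 to 36.34 in the other knockout libraries. The log2 ratio of *Bcl2l11* over *Bid* was 4.80 in wild type replicate 2, and 3.83 to 3.91 in the other wild type libraries. The mean log2 level of the pro-death members without *Pmaip1* minus that of the pro-survival members was -2.35 in knockout replicate 2 (-2.56 to -2.52 in the others) and -2.97 in wild type replicate 4 (-2.80 to -2.79 in the others). No explanation of these values was tested.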

How the results depend on the processing

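Under 19 alternatives, the 7 members that were higher stayed past the threshold in the same direction, and 7 members were higher in each but equal library totals. The 7 include *Pmaip1*, which passed the filter only through the knockout, so its calls are not read as support. With equal library totals, 9 members were higher and 0 lower, *Bcl2l11* turned to 0.52 and *Mcl1* became 1.47, and the pathway lists had 67 genes higher and 1 lower, the marker lists 54 higher and 6 lower (24 and 18 as reported), which goes with the median shift of 1.46 of all genes. The pro-death minus pro-survival level was 0.52 with a pseudocount of 5 and 0.34 without *Pmaip1*, and ranged from 0.64 to 0.82 when 1 library was left out (0.82 without wild type replicate 3). Same-numbered libraries did not deviate together (correlations -0.07 to 0.04), so the numbers do not pair them. With the replicate block 7 members were higher and 1 lower, and *Mcl1* had an adjusted p of 0.708. With 1 library left out, limma-trend adjusted p stayed at or below 0.00313 for the members that passed, *Pmaip1* left aside. *Pmaip1* rests on 11 wild type read pairs, the shallowest value here.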
